A study of Homo sapiens with 18 samples.

Results

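The comparison set printed osteosarcoma tissue after 1 day of culture, named DP-3 day 1, against tumor grown in mice from the same labelled cell line and sequenced fresh, named FIT. The members were chosen by the group given in the sample labels, which put 3 libraries in each group, 6 of the 18 libraries of the series. RNA sequencing measured the transcripts of each library, and the comparison asks how far cells just placed in a bioink differ in gene expression from a tumor in the animal. Both groups were made from the line that the labels spell Soas-2 and the study's methods Saos-2, a human osteosarcoma line, with genotype WT. For DP-3 day 1 the cells were mixed into a bioink of methacrylated gelatin and alginate with a blue light initiator, printed as a grid, set with blue light and calcium chloride, and kept in serum-containing medium for 1 day. For FIT the cells were injected in Matrigel under the skin of the axilla of female BALB/c nude mice, 4 weeks of age, and the tumors were removed at 2 weeks without culture. Nude mice lack mature T cells and keep other host cells. The study used 6 mice and does not state which tumor gave which library. Values are FPKM, fragments counted per transcript length and per library depth, a scale on which genes can be compared. A DEG (differentially expressed gene) had a Benjamini-Hochberg adjusted p under 0.05 in edgeR's quasi-likelihood test and a fold change of at least 2, and upregulated means higher in DP-3 day 1 than in FIT.

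Osteosarcoma is a bone tumor whose cells resemble osteoblasts, the cells that lay down a collagen matrix and mineralize it. Cells respond to oxidants and to heme through the transcription factor NRF2, which switches on enzymes that remake glutathione, reduce quinones and degrade heme, while iron that is set free is stored in ferritin. Bone morphogenetic proteins (BMPs) bind receptors that phosphorylate SMAD1, SMAD5 and SMAD9, and the SMADs then switch on the ID genes and the inhibitors SMAD6 and SMAD7. Almost every nucleated cell shows peptides to T cells on MHC class I molecules, and interferons raise the genes of that machinery.

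Total estimated counts were 50327345 to 50913046 in DP-3 day 1, and 64271701, 65871171 and 23721666 in FIT replicates 1, 2 and 3. For abundant genes the DP-3 day 1 libraries were more alike than those of any other group. For genes of at least 12000 counts, the SD of the log2 ratio between them was 0.067 to 0.072, against 0.221 to 0.330 between FIT libraries and 0.030 from counting alone. Libraries of flat culture (D-2) came next, at 0.086 to 0.116. At 200 to 400 counts D-2 was as alike, at 0.367 to 0.415 against 0.372 to 0.410 for day 1. The day 1 libraries differed by more than counting noise and were kept as 3 samples. No label says that they came from separate prints, so p-values measure the spread between these samples, which may be technical. Each result was therefore also tested with the day 1 counts summed and counted as 1 sample. In one fit with the 15 libraries of the other groups, this pooled test gave 245 DEGs. With the FIT libraries alone it gave 0 DEGs in edgeR, although 1890 genes had an unadjusted p under 0.05, and 560 DEGs in DESeq2. FIT replicate 3 had the fewest counts and held transcripts of the muscle myosins MYH13 and MYH2. The summed level of 19 skeletal muscle genes was 33.5 FPKM there, 3.71 and 2.13 FPKM in the other FIT libraries and 2.20 to 3.00 FPKM in DP-3 day 1. MYH13, a myosin heavy chain of eye muscle, was at 26.7 FPKM in FIT replicate 3 and at 0.374 and 0.0161 FPKM in FIT replicates 1 and 2. MYH2 was at 3.61 FPKM in FIT replicate 3. The sum there rests mostly on MYH13 and MYH2. The muscle genes CKM, MB and MYL1 were at 0 FPKM in that library, so the sum is not a level of muscle tissue. How far these transcripts bear on other genes was not tested.

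The labelled cell type was checked against osteoblast markers. SPARC, a matrix protein of bone, was at 127, 128 and 122 FPKM in DP-3 day 1 and at 121, 141 and 176 FPKM in FIT, and the bone transcription factor RUNX2 was also present. ALPL, the alkaline phosphatase by which this line is usually known, was at 0.0404, 0 and 0 FPKM in the FIT libraries and under 0.1 FPKM in all 6 libraries. SP7, IBSP, DMP1, MEPE and PTH1R were likewise at or near 0 in both groups. The cells are therefore called here by their label only.

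Of 21869 genes tested, 631 were upregulated in DP-3 day 1 (2.89%) and 470 were downregulated (2.15%). The median log2 fold change was 0.01 over all genes tested, 1.89 over upregulated DEGs and -1.76 over downregulated DEGs. The groups did not overlap for any of the 631 and 470 DEGs, nor for 34.0% of all genes tested. A lack of overlap therefore adds nothing to the call of a DEG. Among genes with a mean of at least 10 FPKM the balance was the other way, with 112 upregulated and 158 downregulated of 4424. In 118 of the upregulated DEGs all FIT libraries were at or under the limit of detection, 12 estimated counts or about 3 read pairs. The pooled test called 169 genes upregulated (0.773%) and 76 downregulated (0.348%), and 242 of these 245 genes were also DEGs of the main comparison. In all 6 fits that each left out 1 library, 170 upregulated and 130 downregulated genes stayed DEGs. Without FIT replicate 3 there were 1714 DEGs. With 1 of the day 1 libraries left out, in turn, there were 384, 384 and 387 DEGs. Without FIT replicate 2 there were 664.

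**Figure D1:**
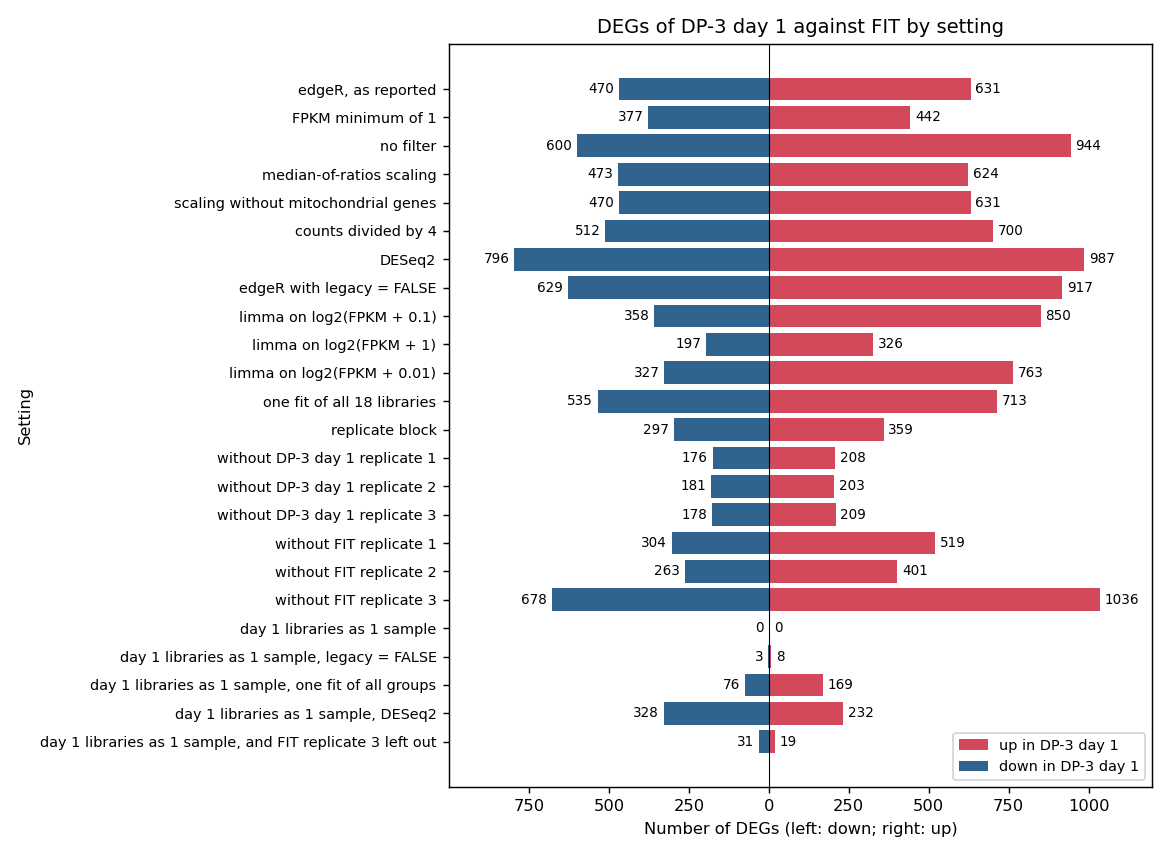
Number of DEGs of DP-3 day 1 against FIT under each setting (y axis), with upregulated genes as red bars to the right of 0 and downregulated genes as blue bars to the left. The main comparison gave 631 and 470, every setting with all libraries kept apart gave DEGs in both directions, and edgeR with the day 1 libraries as 1 sample and only FIT beside them gave 0.

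Genes of the antioxidant response, of ferritin iron storage and of cystine uptake were higher in DP-3 day 1 than in FIT. Of 17 tested NRF2 target and glutathione genes, 6 were upregulated, 0 were downregulated and the median log2 fold change was 0.83. The upregulated genes were HMOX1, NQO1, OSGIN1, SLC7A11, TXNRD1 and GCLM. Of 13 tested genes of iron handling and ferroptosis, an iron-dependent form of cell death, 4 were upregulated (FTH1, FTL, TFRC and again HMOX1), 1 was downregulated (SAT1) and the median was 0.38.

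HMOX1 encodes heme oxygenase 1, which breaks heme into biliverdin, carbon monoxide and iron. It was at 248, 280.2 and 250.05 FPKM in DP-3 day 1 and at 13.3, 21.8 and 9.18 FPKM in FIT. Every day 1 library was above every FIT library, and the difference was 16.1-fold (log2 fold change 4.01 ± 0.34 SE, edgeR adjusted p = 0.00174). The gene lies on chromosome 22 from 35380361 to 35390293 in the deposited annotation. The ferritin heavy chain gene FTH1 was at 1417, 1423 and 1447 FPKM in DP-3 day 1 and at 237, 257 and 287 FPKM in FIT, 5.09-fold higher (edgeR adjusted p = 0.000263). FTL, the light chain, was at 2528, 2510.2 and 2569 FPKM against 519, 404 and 263 FPKM, 5.95-fold higher (edgeR adjusted p = 0.00227). For both ferritin chains every day 1 library was above every FIT library, as for all upregulated DEGs. Ferritin genes have many processed pseudogenes, and reads shared with them could be split differently between genes. TFRC, the transferrin receptor that brings iron into the cell, was 2.93-fold higher as well, at 57.3, 55.9 and 52.6 FPKM against 13.7, 21.7 and 16.8 FPKM (edgeR adjusted p = 0.00598). SAT1, a polyamine acetyltransferase, was 2.60-fold lower, at 5.09, 5.69 and 4.93 FPKM against 16.3, 11.6 and 10.2 FPKM (edgeR adjusted p = 0.00763). Other members of the list did not pass, among them the lipid peroxide reductase GPX4 (log2 fold change 0.29 ± 0.09, adjusted p = 0.0907), and STEAP3, a ferric reductase, was past the p threshold with a log2 fold change of 0.93 ± 0.10, under the fold threshold.

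SLC7A11, the light chain of the cystine and glutamate exchanger, was at 8.24, 7.46 and 7.69 FPKM in DP-3 day 1 and at 0.676, 1.29 and 1.60 FPKM in FIT, 6.11-fold higher (log2 fold change 2.61 ± 0.30, edgeR adjusted p = 0.00482). NQO1, a quinone reductase, was at 47.1, 59.8 and 61.8 FPKM against 7.31, 9.08 and 10.3 FPKM, 5.86-fold higher (2.55 ± 0.17, edgeR adjusted p = 0.000854). OSGIN1, a gene induced by oxidative stress, was 7.40-fold higher, at 8.38, 9.12 and 9.12 FPKM against 1.41, 1.08 and 0.822 FPKM. Day 1 values of these genes varied little, and none reached down to the highest FIT value. TXNRD1, which keeps thioredoxin reduced, was 2.60-fold higher, at 29.4, 28.98 and 29.9 FPKM against 10.1, 10.7 and 10.7 FPKM (edgeR adjusted p = 0.000854). GCLM, the modifier subunit of the enzyme that starts glutathione synthesis, was at 18.7, 17.2 and 17.4 FPKM against 6.78, 10.3 and 5.38 FPKM, 2.18-fold higher (edgeR adjusted p = 0.0339), and it was called in 1 of the 6 fits that left out a library. The catalytic subunit GCLC did not pass (0.65 ± 0.22, adjusted p = 0.114). PGD and ME1, which make NADPH, were past the p threshold at log2 fold changes of 0.74 and 0.996, just under the fold threshold. The pooled test also called HMOX1, NQO1, OSGIN1, SLC7A11, TXNRD1, FTH1, FTL and TFRC.

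The promoters of TXNRD1 and GCLM are shown because they hold the core letters of the antioxidant response element, the site to which NRF2 binds. The letters searched were TGACNNNGC on either strand in the 250 bases before the RefSeq start. RefSeq windows (GRCh38.p14) were at hand for 4 of the 6 upregulated NRF2 targets, and 2 of these held a match. Among all 35116 windows of this length 10.9% did. The TXNRD1 window is chr12:104286782-104287031 on the plus strand and the GCLM window is chr1:93909431-93909680 on the minus strand, each printed along the gene's own strand with the match in capitals.
TXNRD1: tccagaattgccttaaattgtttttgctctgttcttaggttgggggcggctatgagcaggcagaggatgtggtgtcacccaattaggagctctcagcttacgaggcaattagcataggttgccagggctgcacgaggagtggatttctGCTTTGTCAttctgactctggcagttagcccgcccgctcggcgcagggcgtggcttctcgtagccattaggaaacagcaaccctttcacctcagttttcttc
GCLM: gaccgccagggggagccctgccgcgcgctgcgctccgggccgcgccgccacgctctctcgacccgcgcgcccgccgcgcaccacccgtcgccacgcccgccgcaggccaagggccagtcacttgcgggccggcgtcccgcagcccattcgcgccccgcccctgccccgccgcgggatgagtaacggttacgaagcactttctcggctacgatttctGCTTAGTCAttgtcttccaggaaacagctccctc
In the TXNRD1 window the match began 102 bases before the start, and in the GCLM window 34 bases before it. A second TXNRD1 start, further upstream, also held 1 match. No reading of NRF2 binding is drawn from these letters, and HMOX1, FTH1 and SLC7A11 had no window.

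Of 18 ATF4 targets, genes of the amino acid and integrated stress response, 5 were upregulated, 0 were downregulated, and the median log2 fold change was 0.93. DDIT4, an inhibitor of mTORC1, was at 55.6, 52.3 and 52.7 FPKM in DP-3 day 1 and at 14.2, 10.6 and 18.1 FPKM in FIT, 3.49-fold higher (edgeR adjusted p = 0.00244). DDIT3, the transcription factor CHOP, was 2.59-fold higher, at 26.0, 30.2 and 21.8 FPKM against 11.001, 9.61 and 7.30 FPKM (edgeR adjusted p = 0.00948). SLC3A2, the heavy chain that pairs with SLC7A11, was 2.18-fold higher and STC2, a secreted glycoprotein, 2.05-fold higher, and SLC7A11 counted in both lists. ATF4 itself had a log2 fold change of -0.11 ± 0.23 and TRIB3 one of 1.01 ± 0.27 (adjusted p = 0.0577), neither past the test. Of these 5 genes the pooled test called SLC7A11.

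Heat shock proteins, chaperones that refold damaged proteins, gave 0 DEGs of 16, with a median of 0.41. HSPA1A was at a mean of 182 FPKM in DP-3 day 1 and 85.7 FPKM in FIT (log2 fold change 0.996 ± 0.38, adjusted p = 0.156), and without FIT replicate 3 the list gave 5 upregulated genes. ER chaperones gave 0 DEGs of 18. Of 19 hypoxia response genes 1 was upregulated, ADM, which encodes the vasodilator adrenomedullin (2.02-fold, edgeR adjusted p = 0.0266), and VEGFA had a log2 fold change of -0.40 ± 0.11 (adjusted p = 0.068). The pooled test did not call ADM. Glycolysis gave 0 DEGs of 19. DNA replication and mitosis genes gave 0 DEGs of 24 each. The replication genes PCNA (-0.39 ± 0.09, edgeR adjusted p = 0.037) and TK1 (-0.48 ± 0.10, edgeR adjusted p = 0.0247) were past the p threshold but under the fold threshold. The mitosis genes UBE2C (-0.70 ± 0.20, edgeR adjusted p = 0.0713) and TPX2 (-0.05 ± 0.15) did not pass. MKI67, a marker of cycling cells, was at a mean of 15.4 FPKM in DP-3 day 1 and 21.8 FPKM in FIT (-0.61 ± 0.28, adjusted p = 0.224). Ribosomal protein genes (24), cytoskeletal SRF targets (14) and metallothioneins (3) gave 0 DEGs as well. The SRF targets TPM2 (-0.94), MYL9 (-0.58) and TGFB1I1 (-0.50) and the metallothionein MT1E (-0.89) were past the p threshold but under the fold threshold. These lists do not show equality, since a change under 2-fold could not be called a DEG.

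**Figure D2:**
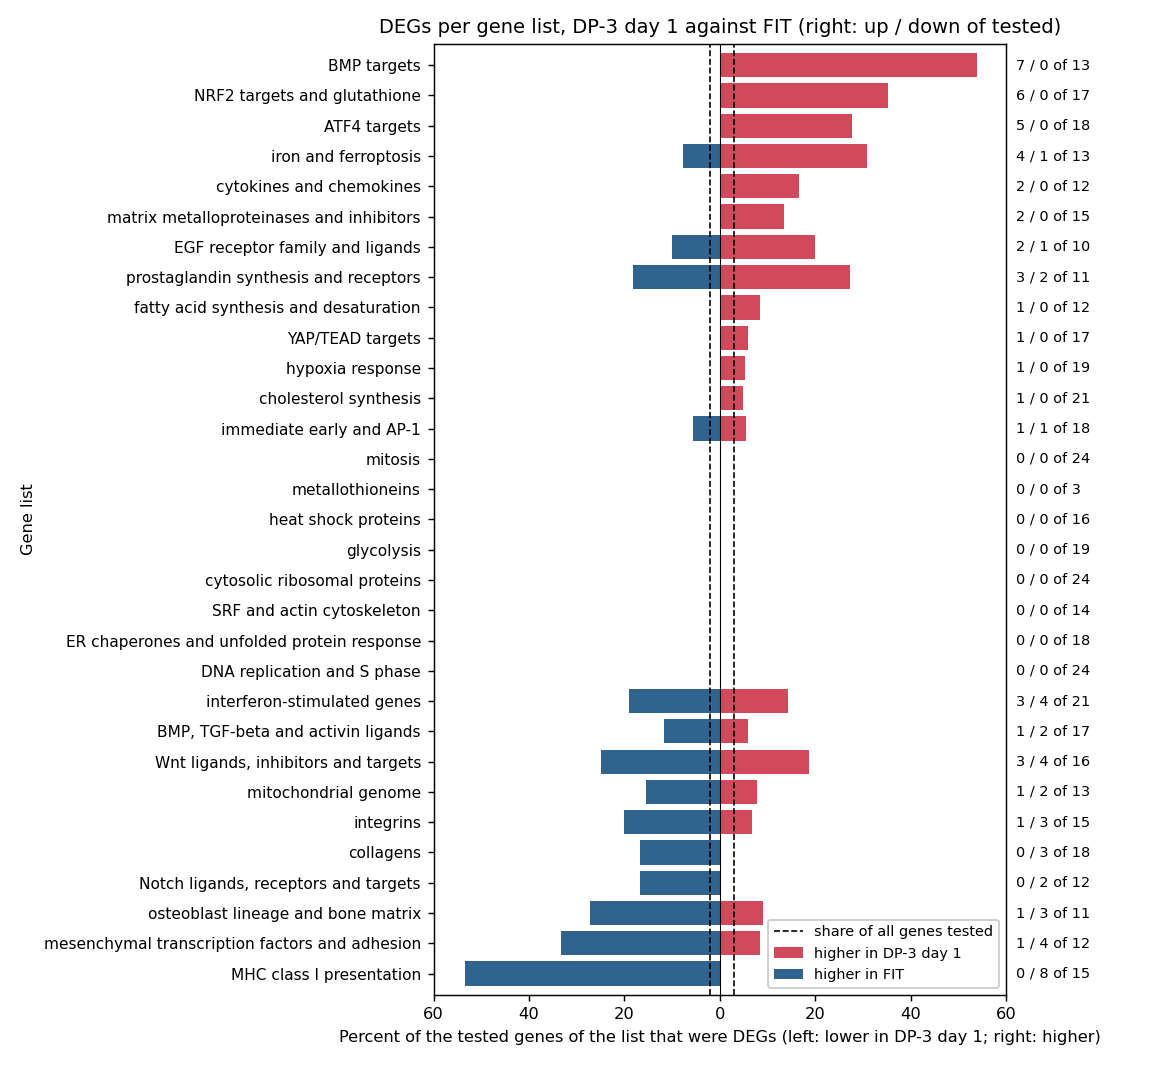
Percent of the tested genes of each list (y axis) that were DEGs, higher in DP-3 day 1 as red bars to the right and higher in FIT as blue bars to the left, with the counts at the right edge. Dashed lines mark the shares among all genes tested, 2.89% upregulated and 2.15% downregulated. BMP targets stood highest on the right with 7 of 13, and MHC class I genes highest on the left with 8 of 15.

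BMP target genes were higher in DP-3 day 1, while the transcripts of the ligands BMP2 and BMP4 were lower. Of 13 tested BMP targets, 7 were upregulated and 0 downregulated, with a median log2 fold change of 1.71. The groups did not overlap for 11 of the 13, against 34.0% of all genes tested, which is not added support. The 11 include the 7 upregulated genes, since no DEG overlapped, and also MSX1, which was lower on day 1. The upregulated genes were ID1, ID3, SMAD6, SMAD7, SMAD9, BAMBI and DLX2, and without FIT replicate 3 the count was 10. ID1, ID3, SMAD6, SMAD7 and SMAD9 were also called by the pooled test.

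ID3, an inhibitor of helix-loop-helix transcription factors, was at 242, 248 and 249.7 FPKM in DP-3 day 1 and at 17.5, 25.3 and 21.5 FPKM in FIT, 10.6-fold higher (log2 fold change 3.41 ± 0.17, edgeR adjusted p = 0.000331). It lies on chromosome 1 from 23557926 to 23559501. ID1, its relative, was at 117, 121 and 117 FPKM against 19.8, 29.6 and 22.1 FPKM, 4.56-fold higher (2.19 ± 0.18, edgeR adjusted p = 0.00166). ID2 did not pass (1.06 ± 0.60, adjusted p = 0.334) and ID4 was near 0. SMAD6, which blocks BMP receptor signaling, was at 5.47, 5.71 and 5.55 FPKM against 0.678, 0.258 and 0.298 FPKM, 12.5-fold higher (3.64 ± 0.36, edgeR adjusted p = 0.00272). SMAD7, the inhibitor that also acts on TGF-beta receptors, was 3.28-fold higher, at 9.52, 8.87 and 6.004 FPKM against 2.20, 1.71 and 3.06 FPKM. SMAD9, a signal-carrying SMAD whose own gene responds to BMP, was 6.11-fold higher, at 2.01, 1.92 and 2.25 FPKM against 0.189, 0.269 and 0.494 FPKM. For SMAD6, SMAD7 and SMAD9 every day 1 library was above every FIT library. BAMBI, a decoy receptor, was 2.99-fold higher, at 39.4, 38.3 and 38.4 FPKM against 11.6, 10.9 and 13.6 FPKM (1.58 ± 0.10, edgeR adjusted p = 0.000854). DLX2, a homeobox factor, was at 1.63, 1.81 and 1.66 FPKM against 0.481, 0.243 and 0.205 FPKM, 5.01-fold higher. MSX1 went the other way within the list (-0.61 ± 0.10, adjusted p = 0.0144, under the fold threshold), and NOG, an extracellular BMP antagonist, did not pass (1.14 ± 0.46, adjusted p = 0.177).

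Of the 17 tested BMP, TGF-beta and activin ligand genes, 1 was upregulated and 2 were downregulated. BMP2 was at 1.01, 1.13 and 0.790 FPKM in DP-3 day 1 and at 5.15, 4.44 and 3.48 FPKM in FIT, 4.80-fold lower (log2 fold change -2.26 ± 0.24, edgeR adjusted p = 0.00377). BMP4 was at 1.18, 0.942 and 1.14 FPKM against 5.06, 3.54 and 12.6 FPKM, 6.83-fold lower (-2.77 ± 0.46, edgeR adjusted p = 0.0141), and was called in 3 of the 6 fits that left out a library. For both ligands the lowest FIT library was above the highest day 1 library. GDF15, a secreted factor of stressed cells, was 4.54-fold higher (edgeR adjusted p = 0.024). The left-right factor LEFTY1, named by the study, was not a DEG (-2.42, adjusted p = 0.272). The pooled test called none of these ligands, and levels of the proteins or of phosphorylated SMADs were not measured here.

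BAMBI had the one upregulated BMP target promoter that held GGCGCC, a motif of SMAD1 and SMAD5 binding that reads the same on both strands. RefSeq windows were at hand for all 7 upregulated targets, and 16.4% of all windows held the letters. The BAMBI window, chr10:28677271-28677520 on the plus strand, is shown because it held 3 copies, in capitals, which began 209, 196 and 181 bases before the start.
BAMBI: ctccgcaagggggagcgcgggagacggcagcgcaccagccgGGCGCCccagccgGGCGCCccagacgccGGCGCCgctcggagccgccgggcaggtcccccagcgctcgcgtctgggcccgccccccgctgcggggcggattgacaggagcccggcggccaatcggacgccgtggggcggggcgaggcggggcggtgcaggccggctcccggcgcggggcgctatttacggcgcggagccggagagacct
The windows of the other 6 genes held no copy of these letters within 250 bases, which says nothing of sites elsewhere.

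Matrix genes moved in both directions. COL1A1, the main chain of bone collagen, was at 1.79, 1.99 and 1.896 FPKM in DP-3 day 1 and at 21.0, 19.6 and 20.2 FPKM in FIT, 11.5-fold lower (log2 fold change -3.52 ± 0.09, edgeR adjusted p = 3.28e-05). The libraries of each group lay close together, and this was the smallest adjusted p of the comparison. The gene spans 50184101 to 50201632 on chromosome 17. Its partner chain COL1A2 did not pass, at means of 5.65 FPKM on day 1 and 9.47 FPKM in FIT (-0.84 ± 0.41, adjusted p = 0.252). Of 18 tested collagen genes 0 were upregulated and 3 downregulated. The median was -0.50, but it was 0.05 without FIT replicate 3, -0.16 with the replicate block and -0.06 with limma and a pseudocount of 0.1. COL15A1, a collagen of basement membrane zones, was 5.70-fold lower, at 1.21, 1.22 and 1.17 FPKM against 8.72, 4.87 and 5.64 FPKM (edgeR adjusted p = 0.00174). COL6A1 was 2.03-fold lower, at 285, 297 and 292 FPKM against 451, 522 and 676 FPKM (edgeR adjusted p = 0.0107). COL4A1 and COL4A2, chains of basement membrane collagen, were past the p threshold in the other direction at log2 fold changes of 0.71 and 0.55, under the fold threshold. In this bulk RNA, fewer cells of a type and less RNA per cell cannot be told apart.

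MMP3, the protease stromelysin 1, was at 16.6, 17.0 and 15.3 FPKM in DP-3 day 1 and at 0.189, 0.252 and 0.320 FPKM in FIT, 59.7-fold higher (log2 fold change 5.90 ± 0.24, edgeR adjusted p = 0.000143). By the naming rule it was the upregulated gene of largest change. MMP15, a membrane-anchored protease, was 4.74-fold higher, at 21.6, 21.6 and 20.3 FPKM against 4.73, 3.09 and 4.69 FPKM. They were the 2 upregulated genes among 15 tested proteases and inhibitors, of which 0 were downregulated. The collagenase MMP1 (-0.61 ± 0.35, adjusted p = 0.342), MMP14 (-0.51 ± 0.14, adjusted p = 0.0704) and the inhibitor TIMP1 (0.06 ± 0.09, adjusted p = 0.737) did not pass. MMP3, MMP15, COL1A1 and COL15A1 were called by the pooled test.

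Of 12 tested mesenchymal transcription factor and adhesion genes, 1 was upregulated and 4 were downregulated. FN1, fibronectin, was at 497, 506 and 507 FPKM in DP-3 day 1 and at 1347, 2215 and 851 FPKM in FIT, 3.19-fold lower (log2 fold change -1.67 ± 0.34, edgeR adjusted p = 0.0266). PRRX1, a homeobox factor of limb mesenchyme, was 3.69-fold lower, at 8.51, 8.44 and 8.04 FPKM against 28.0, 37.4 and 19.5 FPKM (edgeR adjusted p = 0.00665). FOXC2 was 2.73-fold lower and SNAI2 2.22-fold lower, whereas the related repressor SNAI1 was 3.25-fold higher, at 16.004, 16.3 and 16.6 FPKM against 3.42, 4.56 and 6.04 FPKM (edgeR adjusted p = 0.00667). SNAI1 and SNAI2 therefore moved in opposite directions. None of the 5 was called by the pooled test. Of 15 integrin genes, the collagen-binding ITGA10 (2.61-fold), ITGA4 (4.06-fold) and the laminin-binding ITGA6 (2.14-fold) were lower and ITGA11 was higher (4.30-fold), and none was called by the pooled test. ITGA11 stayed under 0.5 FPKM in every library.

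Of 11 tested osteoblast and bone matrix genes, 1 was upregulated and 3 were downregulated, counting COL1A1 and BMP4 again. TNFRSF11B, osteoprotegerin, which restrains osteoclasts, was at 0.324, 0.460 and 0.500 FPKM in DP-3 day 1 and at 9.48, 6.10 and 2.20 FPKM in FIT, 14.8-fold lower (edgeR adjusted p = 0.00813), and was not called by the pooled test (adjusted p = 0.101). The homeobox factor DLX5 was at 1.38, 1.07 and 0.626 FPKM in DP-3 day 1 and at or under the detection limit in FIT, at least 6.89-fold higher. Its adjusted p was 0.0497, and the call was lost with median-of-ratios scaling (0.0505), with the replicate block (0.0975), in the pooled test (0.144) and in 5 of the 6 fits that left out a library.

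**Figure D3:**
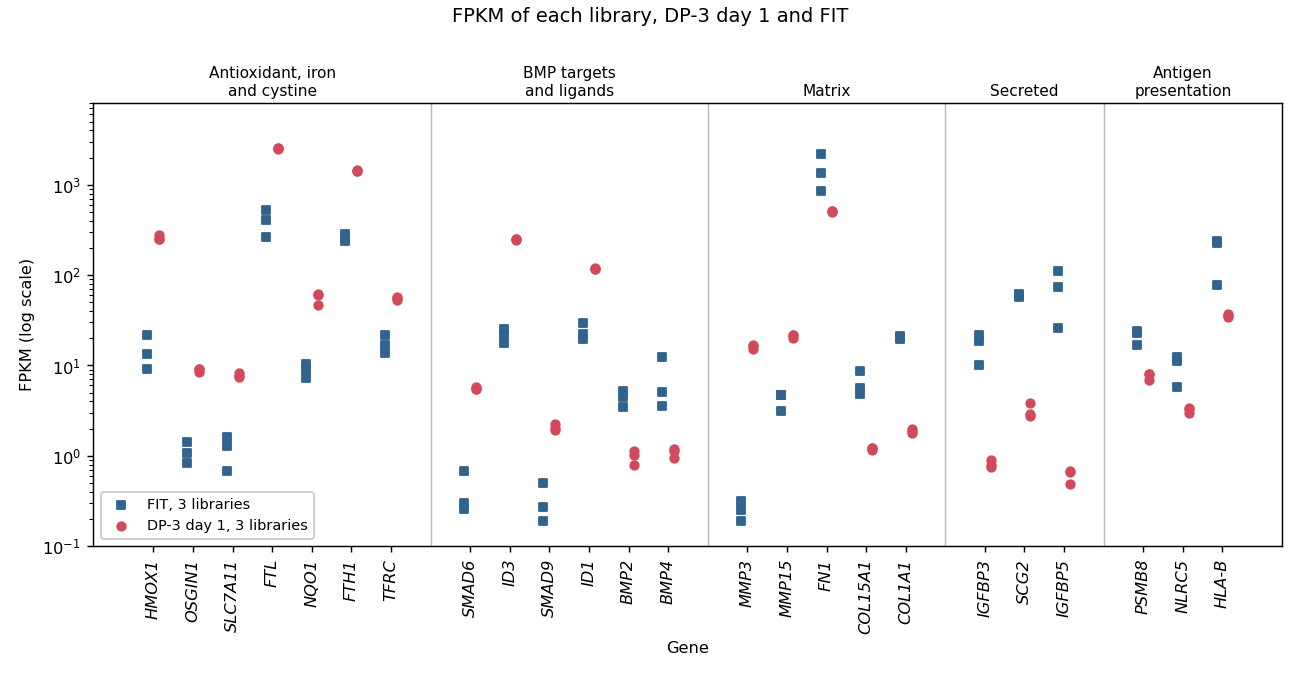
FPKM on a log axis in each library of DP-3 day 1 (red circles) and FIT (blue squares) for genes of 5 groups. The groups do not overlap for any gene shown, from MMP3 at 15.3 to 17.0 FPKM on day 1 against 0.189 to 0.320 FPKM in FIT, to COL1A1 at 1.79 to 1.99 FPKM against 19.6 to 21.0 FPKM. This lack of overlap held for every DEG of the comparison and is not added support.

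The naming rule, which asked for a mean of at least 5 FPKM in a group and no overlap, gave 10 downregulated genes, of which TNFRSF11B is described above and IFITM1 with the interferon genes. IGFBP5, which binds insulin-like growth factors and is abundant in bone, was at 0.684, 0.489 and 0.668 FPKM in DP-3 day 1 and at 111, 73.5 and 25.8 FPKM in FIT, 123-fold lower (log2 fold change -6.94 ± 0.59, edgeR adjusted p = 0.00174). IGFBP3, of the same family, was 22.1-fold lower, at 0.755, 0.888 and 0.798 FPKM against 21.7, 18.7 and 10.1 FPKM (edgeR adjusted p = 0.000854). SCG2, a granin of secretory granules, was 20.2-fold lower, at 2.74, 3.87 and 2.89 FPKM against 58.8, 57.2 and 62.6 FPKM (edgeR adjusted p = 0.000113). FIT replicate 3 was the lowest FIT library for both binding proteins but not for SCG2. LSP1, an actin-binding protein first known from leukocytes, was at 0.203, 0.216 and 0.217 FPKM against 5.81, 6.97 and 7.96 FPKM, 34.0-fold lower (edgeR adjusted p = 0.000113). SLC14A1, a urea transporter, was 60.7-fold lower, at 0.154, 0.140 and 0.101 FPKM against 13.4, 6.87 and 2.59 FPKM. BAALC was 25.7-fold lower, at 0.656, 0.453 and 0.438 FPKM against 15.6, 18.1 and 3.23 FPKM. All 6 of these genes were called by the pooled test. ACTG2, a smooth muscle actin whose reads may be shared with other actins, was 20.1-fold lower, at 2.28, 1.84 and 2.05 FPKM against 45.3, 58.7 and 10.3 FPKM (edgeR adjusted p = 0.009). H3P16, a histone H3 pseudogene, was at 110.1 FPKM in FIT replicate 3 and at 10.7 and 9.24 FPKM in the other FIT libraries, and its reads may belong to near-identical histone genes. It was called in 3 of the 6 fits that left out a library and not by the pooled test.

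Beside MMP3, HMOX1, SMAD6 and ID3, the rule named 6 further upregulated genes. PANX2, a pannexin channel, was 8.99-fold higher, at 12.5, 8.54 and 7.11 FPKM in DP-3 day 1 and 1.15, 1.12 and 0.568 FPKM in FIT (edgeR adjusted p = 0.00404). ANKRD1, a target of YAP and TEAD, was 8.88-fold higher, at 9.41, 10.8 and 9.64 FPKM against 1.57, 1.01 and 0.444 FPKM (edgeR adjusted p = 0.00667). It was the 1 DEG of 17 YAP and TEAD targets, and CCN1 (0.18 ± 0.15) and CCN2 (-0.45 ± 0.12) did not pass. MSC, the transcription factor musculin, was 14.9-fold higher, at 6.71, 5.87 and 5.27 FPKM against 0.0228, 0.424 and 0.704 FPKM (edgeR adjusted p = 0.0385), and was called in 2 of the 6 fits that left out a library. The remaining names were MIR6724-1, MIR6724-2 and MIR6724-4, near-identical copies on chromosome 21. They were at 3.88 to 9.84 FPKM in DP-3 day 1 and at or under the detection limit in FIT, at least 1.86-fold, 2.86-fold and 2.92-fold higher. MIR6724-1 and MIR6724-4 were called in 3 of the 6 fits that left out a library, and the pooled test called no copy. Reads of the copies cannot be placed with certainty. The summed level of 5.8S ribosomal RNA genes moved with them in part, at 361 to 499 FPKM in DP-3 day 1 and at 38.6, 74.2 and 386 FPKM in FIT, and its part in this result was not tested.

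Genes of MHC class I presentation were lower in DP-3 day 1. Of 15 tested genes 0 were upregulated and 8 were downregulated, with a median log2 fold change of -1.02. The 8 were HLA-B, HLA-C, HLA-F, the light chain B2M, the peptide pump subunit TAP1, the immunoproteasome subunits PSMB8 and PSMB9 and the transcriptional activator NLRC5. HLA-B was at 35.5, 34.1 and 37.3 FPKM in DP-3 day 1 and at 241, 227 and 77.2 FPKM in FIT, 5.52-fold lower (-2.46 ± 0.40, edgeR adjusted p = 0.0136). HLA-C was at 122 FPKM in each day 1 library and at 275, 260.4 and 153 FPKM in FIT, 2.03-fold lower. HLA-F was 3.57-fold lower, at 1.89, 1.47 and 1.63 FPKM against 7.80, 5.44 and 3.40 FPKM. HLA genes share sequence, and the deposited HLA-B model, from 31269491 to 31357179 on chromosome 6, overlaps that of HLA-C, so their reads may be split differently.

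B2M was at 66.9, 51.0 and 67.0 FPKM in DP-3 day 1 and at 135, 109 and 112 FPKM in FIT, 2.06-fold lower (log2 fold change -1.05 ± 0.14, edgeR adjusted p = 0.00705). NLRC5 was 3.28-fold lower, at 3.36, 2.98 and 3.29 FPKM against 12.3, 11.2 and 5.76 FPKM (edgeR adjusted p = 0.0124). PSMB8 was 3.00-fold lower, at 6.82, 8.08 and 8.03 FPKM against 23.97, 22.9 and 16.8 FPKM (edgeR adjusted p = 0.00373). For each of these 3 genes the lowest FIT library was above the highest day 1 library. TAP1 was 2.44-fold lower, at 9.65, 9.33 and 8.27 FPKM against 27.5, 22.04 and 12.2 FPKM, and PSMB9 2.79-fold lower, in neighbouring gene models that overlap. PSMB10, an immunoproteasome subunit, was past the p threshold but under the fold threshold (-0.84 ± 0.13, adjusted p = 0.0126). HLA-E, TAP2, TAPBP, ERAP1 and ERAP2 did not pass. FIT replicate 3 was the lowest FIT library for 7 of the 8 genes, and without it the count was again 8. The pooled test called PSMB8 and PSMB9, and 1 of the 8, PSMB8, was called in all 6 fits that left out a library.

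The promoters of TAP1, B2M and HLA-F are shown because they held the letters of the interferon-stimulated response element, a pair of GAAA runs with 2 bases of any kind between them, on either strand. RefSeq windows were at hand for 7 of the 8 downregulated genes, and 3 held a match, as did 3.02% of all windows. The windows are chr6:32853705-32853954 on the minus strand for TAP1, chr15:44711267-44711516 on the plus strand for B2M and chr6:29723184-29723433 on the plus strand for HLA-F, with matches in capitals.
TAP1: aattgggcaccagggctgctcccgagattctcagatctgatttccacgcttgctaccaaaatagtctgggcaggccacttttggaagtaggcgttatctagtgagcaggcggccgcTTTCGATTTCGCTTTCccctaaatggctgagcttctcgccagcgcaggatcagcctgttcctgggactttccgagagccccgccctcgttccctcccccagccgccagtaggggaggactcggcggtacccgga
B2M: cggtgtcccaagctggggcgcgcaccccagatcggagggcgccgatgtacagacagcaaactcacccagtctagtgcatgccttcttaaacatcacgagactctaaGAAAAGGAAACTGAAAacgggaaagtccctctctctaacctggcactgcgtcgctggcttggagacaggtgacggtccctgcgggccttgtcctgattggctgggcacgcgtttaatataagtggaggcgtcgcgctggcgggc
HLA-F: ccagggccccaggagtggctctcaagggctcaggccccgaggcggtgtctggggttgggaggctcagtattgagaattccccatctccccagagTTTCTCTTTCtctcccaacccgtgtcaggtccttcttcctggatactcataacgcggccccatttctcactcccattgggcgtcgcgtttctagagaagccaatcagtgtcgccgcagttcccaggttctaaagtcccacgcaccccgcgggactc
TAP1 and B2M each held 2 overlapping matches, which began 134 and 128 bases before the start of TAP1 and 144 and 138 bases before that of B2M, and the HLA-F match began 156 bases before its start. A match describes letters and not binding, and among all 12 tested members with a window 7 held the element.

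Interferon-stimulated genes did not move one way. Of 21 tested, 3 were upregulated and 4 downregulated. IFIT2, which binds viral RNA, was at 56.2, 53.7 and 56.8 FPKM in DP-3 day 1 and at 17.6, 8.502 and 8.53 FPKM in FIT, 4.49-fold higher (edgeR adjusted p = 0.00635). IFI44 was 2.73-fold higher and OASL 2.56-fold higher. By contrast IFI6, which protects mitochondria from apoptosis, was at 22.8, 19.7 and 18.04 FPKM against 287, 209 and 43.0 FPKM, 9.62-fold lower (edgeR adjusted p = 0.0217). IFI27 was 9.95-fold lower, at 0.365, 0.363 and 0.282 FPKM against 5.13, 3.79 and 0.502 FPKM. IRF9, which carries the interferon signal to DNA, was 4.08-fold lower and the RNA sensor OAS3 2.88-fold lower. IFITM1, an antiviral membrane protein named by its size of change, was 16.7-fold lower, at 4.35, 3.93 and 5.39 FPKM against 126, 76.4 and 11.04 FPKM (edgeR adjusted p = 0.023). IFI6, IFI27, OAS3 and IFITM1 varied widely within FIT, and replicate 3 was the lowest FIT library for these genes and for IRF9. The pooled test called none of these genes, and without FIT replicate 3 the list gave 3 upregulated and 8 downregulated genes.

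Signals between cells also differed. Of 16 tested Wnt pathway genes, 3 were upregulated and 4 downregulated, with a median log2 fold change of -0.88. DKK1, a secreted Wnt inhibitor, was at 18.9, 18.5 and 15.6 FPKM in DP-3 day 1 and at 2.65, 3.34 and 4.14 FPKM in FIT, 4.87-fold higher (edgeR adjusted p = 0.00182). The ligand WNT10B was 2.98-fold higher, at 4.22, 4.30 and 3.91 FPKM against 0.817, 1.02 and 2.06 FPKM, and the Wnt transcription factor LEF1 was 2.27-fold higher. FZD6, a Wnt receptor, was 2.83-fold lower, at 35.9, 35.5 and 37.6 FPKM against 130.5, 93.7 and 62.5 FPKM (edgeR adjusted p = 0.0128). The feedback inhibitors AXIN2 (2.08-fold) and RNF43 (2.07-fold) and the Dickkopf relative DKK3 (3.64-fold) were lower, and DKK3 was at most 0.622 FPKM in the 6 libraries. WNT10B, LEF1, AXIN2 and RNF43 were each called in 1 of the 6 fits that left out a library. With the replicate block the list gave 1 upregulated and 3 downregulated genes. The list thus held ligands, receptors and inhibitors that moved both ways, and the pooled test called DKK1 and FZD6. NFATC2, a calcium-regulated factor named by the study, was not a DEG (-1.60, adjusted p = 0.0665). Of 12 Notch genes, the ligand JAG1 was 2.09-fold lower and LFNG, a glycosyltransferase that modifies Notch, was 3.39-fold lower, at 0.910, 1.02 and 1.03 FPKM against 3.25, 2.47 and 3.71 FPKM (edgeR adjusted p = 0.00543). The pooled test called LFNG but not JAG1.

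EREG, a ligand of the EGF receptor, was at 0.136, 0.173 and 0.145 FPKM in DP-3 day 1 and at 4.05, 3.73 and 1.47 FPKM in FIT, 21.8-fold lower (edgeR adjusted p = 0.00272), while the ligands EGF (3.78-fold) and TGFA (3.25-fold) were higher at levels under 1 FPKM. They were the 3 DEGs among 10 tested genes of that family. CSF1, the growth factor of macrophages, was 4.35-fold higher, at 71.7, 73.5 and 77.1 FPKM against 17.4, 15.5 and 14.5 FPKM (log2 fold change 2.12 ± 0.10, edgeR adjusted p = 0.000263). The chemokine CCL5 was 2.58-fold higher, which made 2 upregulated and 0 downregulated among 12 tested cytokines and chemokines. Of 11 prostaglandin genes 3 were upregulated and 2 downregulated. The synthases PTGES and PTGIS were at or under the detection limit in FIT and at least 12.7-fold and 3.98-fold higher in DP-3 day 1. AKR1C3, which reduces prostaglandin D, was 2.21-fold higher. The receptor PTGER2 was 2.88-fold lower, and the receptor PTGDR2 was at 0, 0.0646 and 0.228 FPKM against 6.06, 4.06 and 11.4 FPKM (edgeR adjusted p = 0.0131). Of the EGF family, cytokine and prostaglandin genes, the pooled test called EREG and CSF1 only.

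In 3 lists of metabolism the shares called rest on 1 to 3 genes each. Upregulated were 4.76% of cholesterol synthesis genes, 8.33% of fatty acid genes and 7.69% of mitochondrial genome genes, against 2.89% of all genes tested. Downregulated were 15.4% of mitochondrial genome genes, against 2.15% of all. The pooled test called no gene of these lists. SC5D was the 1 DEG of 21 cholesterol synthesis genes (2.68-fold higher) and the desaturase SCD the 1 DEG of 12 fatty acid genes (3.05-fold higher, edgeR adjusted p = 0.0496). Of the 13 protein genes of the mitochondrial genome, MT-ATP6 was 2.61-fold higher while MT-CO3 was 3.07-fold lower and MT-ND3 2.29-fold lower. MT-ATP6 ends and MT-CO3 begins at base 9207, on RNA that is made as one precursor, so reads across that border cannot be assigned with certainty. Among 18 immediate early genes ATF3 was 2.16-fold higher and IER3 8.32-fold lower, neither called by the pooled test.

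Markers of cells that a mouse could add were mostly at low levels. Of 96 listed genes in 9 lists, 42 entries passed the filter, with DES and RGS5 counted more than once. Of these 42, 0 were higher in DP-3 day 1 and 7 were lower, against 2.89% and 2.15% of all genes tested. The 7 were PECAM1, CDH5 and TEK of endothelium, PDGFRA and CLEC3B of fibroblasts, and KRT5 and KRT15 of keratinocytes. PECAM1, a junction protein, was at 1.53, 1.17 and 1.80 FPKM in DP-3 day 1 and at 4.46, 2.93 and 3.40 FPKM in FIT, 2.56-fold lower, and CDH5, the cadherin that defines endothelium, was at 0.0950, 0.0717 and 0.149 FPKM against 1.11, 0.516 and 0.343 FPKM, 6.55-fold lower. PDGFRA was 3.41-fold lower, at 7.15, 6.77 and 6.80 FPKM against 24.3, 28.3 and 12.6 FPKM. CLEC3B was at or under the detection limit on day 1, at least 15.4-fold lower. Other endothelial members differed. ERG was at 0 FPKM in every FIT library, and KDR and VWF averaged 0.00175 and 0.00772 FPKM in FIT. EGFL7 averaged 2.19 FPKM on day 1 and 1.09 FPKM in FIT, while ESAM and ROBO4 were lower on day 1 without a call. In flat culture, D-2, PECAM1 averaged 1.46 FPKM and PDGFRA 11.7 FPKM, so neither is a marker of host cells alone. Summed over all 12 listed genes, endothelial markers were at 50.8 to 52.4 FPKM in DP-3 day 1 and at 37.3 to 52.4 FPKM in FIT, and the 9 fibroblast markers were at 58.8 to 60.5 FPKM and at 54.8 to 88.7 FPKM. Keratinocyte markers summed to 24.98 to 25.8 FPKM in DP-3 day 1 and 24.2 to 49.7 FPKM in FIT, macrophage markers to 66.1 to 93.2 FPKM and 25.3 to 61.8 FPKM, and pericyte and smooth muscle markers to 62.6 to 65.1 FPKM and 45.3 to 59.4 FPKM. These sums rest mostly on 1 gene each, and are not levels of a cell class. The genes were TIE1 of the endothelial list (42.8 to 44.7 FPKM on day 1, 27.9 to 39.1 FPKM in FIT), THY1 of the fibroblast list (49.3 to 51.02 and 25.4 to 63.4 FPKM), KRT10 of the keratinocyte list (22.8 to 23.6 and 19.4 to 30.2 FPKM), CD68 of the macrophage list (59.7 to 87.3 and 18.6 to 55.2 FPKM) and CSPG4 of the pericyte list (49.2 to 51.4 and 32.7 to 48.5 FPKM). None of the 5 was a DEG. Adipocyte, red blood cell and neutrophil markers summed to under 3 FPKM in each of the 6 libraries compared. The red blood cell and neutrophil lists held 4 and 5 of 7 genes at 0 in all FIT libraries. Of the 7, the pooled test called PECAM1. Whether reads of mouse RNA were removed before counting is not stated, and the part of host RNA in the matrix, MHC class I and IGFBP results was not tested.

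The other groups place the day 1 level of several genes. HMOX1 averaged 259 ± 18.04 FPKM (SD, n = 3) in DP-3 day 1, followed by D-3 (cells in Matrigel) at 131 ± 44.7, IT (tumor pieces in culture) at 65.2 ± 19.9, DP-3 on day 14 at 58.2 ± 12.5, D-2 (flat culture) at 32.7 ± 3.43 and FIT at 14.8 ± 6.42 FPKM. The means of IT and of DP-3 on day 14 differed by less than their SDs. FTH1 followed a like order, from 1429 ± 15.5 FPKM in DP-3 day 1 and 1097 ± 137 in D-3 to 260.5 ± 24.7 in FIT. SLC7A11 averaged 8.03 ± 0.92 FPKM in D-3 and 7.80 ± 0.40 in DP-3 day 1, a difference within the SD. ID3 was at 178 to 272 FPKM on average in D-2, D-3 and both printed groups, 129 ± 72.7 in IT and 21.5 ± 3.91 in FIT. COL1A1 was lowest in DP-3 day 1 at 1.89 ± 0.10 FPKM and highest in FIT at 20.3 ± 0.69. IGFBP5 averaged 0.61 to 1.26 FPKM in the groups grown from cells in culture, 23.3 ± 15.7 in IT and 70.1 ± 42.6 in FIT. HLA-B averaged 25.3 to 35.6 FPKM in D-2 and both printed groups, and 168 to 185 FPKM in D-3, IT and FIT. These orders are descriptions without a test.

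**Figure D4:**
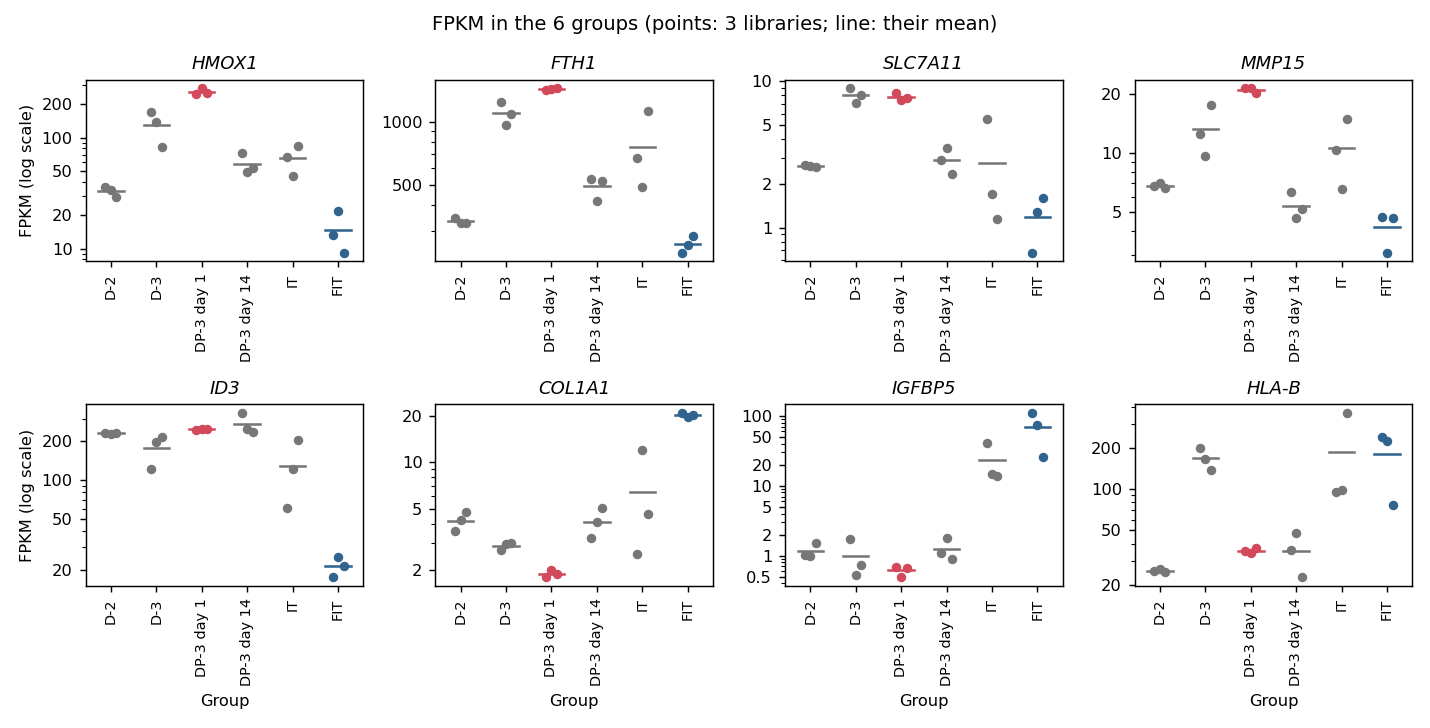
FPKM on a log axis of 8 genes in the 3 libraries of each of the 6 groups (points) with their mean (line), DP-3 day 1 in red and FIT in blue. HMOX1 averaged 259 FPKM in DP-3 day 1 and 14.8 FPKM in FIT with the other groups between, and HLA-B was 25.3 to 35.6 FPKM in D-2 and both printed groups.

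DP-3 day 1 was tested directly against the printed tissue of day 14 with the same edgeR test. Of 20774 genes 1571 were DEGs (7.56%), 1196 higher and 375 lower on day 1. Both comparisons share the day 1 libraries, so no count of genes common to them is given. With day 1 counted as 1 sample in one fit of all groups, 0 genes passed, 3044 had an unadjusted p under 0.05, and the smallest adjusted p was 0.0653, while DESeq2 with 3 samples a group gave 2042. HMOX1 was 1.89 ± 0.16 higher on the log2 scale on day 1 than on day 14 (edgeR adjusted p = 0.00159), and SLC14A1 was 5.00 ± 0.32 lower (edgeR adjusted p = 0.00139). Of the 20 genes of largest change against FIT, 14 were DEGs in this comparison and 6 were not. The 6 were MMP3 (-0.14 ± 0.13), SMAD6 (0.29 ± 0.14), ID3 (-0.40 ± 0.13), LSP1 (-0.01 ± 0.39), H3P16 (-0.93 ± 0.35) and TNFRSF11B (-1.27 ± 0.52). On day 14, MMP3 was at 15.7, 12.8 and 15.97 FPKM and ID3 at 333, 248 and 234 FPKM, levels near those of day 1.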

How the data were processed

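Poly(A) RNA of 18 libraries was sequenced in read pairs, and 6 libraries, 3 of DP-3 day 1 and 3 of FIT, were compared here. Groups and replicate numbers were taken from the sample labels. The submitters' processing notes name cutadapt 1.9, HISAT2 2.0.4, StringTie 1.3.4d, DESeq2 and edgeR. The genome build is not given in the sources used here, and 99.8% of the 48223 genes found in GENCODE release 29 (GRCh38) overlapped their positions there. The authors deposited FPKM values made with StringTie. The deposited estimated counts are whole numbers that follow coverage, about 4 to a read pair (37.6% of 72134 low counts were multiples of 4, against 25% by chance), so 12 counts, or 3 read pairs, were taken as the limit of detection. That limit covers counting error only.

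Counts were tested as deposited with edgeR 4.0.16 (TMM scaling, quasi-likelihood F test, R 4.3.3) in genes of at least 0.1 FPKM in 3 of the 6 libraries, 21869 of 50119. DEGs had a Benjamini-Hochberg adjusted p under 0.05 over all genes tested and a log2 fold change of at least 1 in size. The SE was the log2 fold change divided by the root of F. The biological coefficient of variation was 36.5%. The test was checked on simulated data. Alternatives changed the filter, the scaling, the counts per pair, the tool (DESeq2 1.42.0, or limma 3.58.1 on log2 FPKM plus a pseudocount), the replicates and the samples in the fit. The summed day 1 sample was an alternative chosen after seeing the data. Replicate numbers did not pair the libraries, so no block was used.

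The named genes were the 10 DEGs of largest change in each direction with no overlap, above 0 FPKM in all 6 libraries and with a mean of at least 5 FPKM in a group, up to 4 DEGs in each direction of each of 31 gene lists, genes the study names, and the 3 highest members of each of 9 host cell lists. Where a list is described in full, members outside this rule are also named and were chosen after their values were seen. The members and lists were chosen with earlier results of these data known. Promoter sequences are from RefSeq (GRCh38.p14). No column of per-sample values was left unmapped.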

Additional observations from a re-analysis of the deposited data

Results flagged for a closer look

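Of the 20 genes of largest change between DP-3 day 1 and FIT, 14 also differed between DP-3 day 1 and DP-3 on day 14 when that difference was tested itself (edgeR adjusted p under 0.05 and at least 2-fold). Since both comparisons use the day 1 libraries, the 2 differences of a gene are not independent. With day 1 counted as 1 sample in one fit of all groups, none of the 14 passed, as 0 genes were called between day 1 and day 14 and the smallest adjusted p was 0.0653, although 3044 had an unadjusted p under 0.05 and DESeq2 with 3 samples a group called 2042.

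Higher on day 1 than on day 14, on the log2 scale, were HMOX1 by 1.89, MSC by 1.27 and PANX2 by 1.20, all of them also higher than in FIT. MIR6724-1, MIR6724-2 and MIR6724-4 had fitted log2 differences of 4.53, 4.62 and 4.65, which depend on the prior count because day 14 values were at or under 0.479 FPKM, and their reads cannot be placed with certainty between copies.

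Lower on day 1 than on day 14 were the urea transporter gene SLC14A1 at -5.00, BAALC at -2.28, IFITM1 at -2.20, SCG2 at -2.08, IGFBP3 at -1.71, IGFBP5 at -1.30 and ACTG2 at -1.24, and each of them was also lower than in FIT. ANKRD1, at -1.26, was the 1 gene of the 14 that was lower on day 1 than on day 14 and higher on day 1 than in FIT.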

How the results depend on the processing

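The main comparison gave 1101 DEGs, 631 upregulated and 470 downregulated. DESeq2 gave 1783 (987 and 796), limma on log2(FPKM + 1) gave 523 (326 and 197), and the fit with the replicate block gave 656 (359 and 297), although deviations of same-numbered libraries had correlations of -0.00 to 0.01. Leaving out 1 library gave 384 to 1714 DEGs, 203 to 1036 upregulated and 176 to 678 downregulated, the highest counts without FIT replicate 3. With the day 1 libraries as 1 sample, edgeR with FIT alone gave 0 (0 and 0), the same with legacy = FALSE gave 11 (8 and 3), one fit of all groups gave 245 (169 and 76), DESeq2 gave 560 (232 and 328), and leaving out FIT replicate 3 as well gave 50 (19 and 31). A lone day 1 sample was assumed to vary like the other groups. The share of DEGs that were upregulated was 57.3% in the main comparison, 70.4% with limma and a pseudocount of 0.1 and 70.0% with limma and a pseudocount of 0.01, where the median of all genes was shifted by 0.12 and 0.14. Without a filter that median was shifted by 0.61, from genes near the detection limit, and 1544 genes were called.

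No named gene that was a DEG changed direction under any alternative run. Of 83 such genes, 82 kept their call in DESeq2 and 66 with the replicate block. Without a day 1 library 44 to 46 kept it, and without a FIT library 62 to 78. With the day 1 libraries as 1 sample some lost it in every fit, and all lost it in edgeR with FIT alone. FIT replicate 3, with 23721666 counts, limits what can be read from genes of low level.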

Other observations

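Some genes outside the lists were picked after their values were seen, and are given as values. UCA1, a long noncoding RNA, was at 2.79, 2.89 and 3.22 FPKM in DP-3 day 1 and listed at 0 in every FIT library, at least 47.5-fold higher. CD177, a surface protein of neutrophils, was at 1.57, 1.51 and 1.82 FPKM and at or under the detection limit in FIT, at least 15.5-fold higher. IFNB1, interferon beta, was at 1.56, 1.002 and 0.979 FPKM and at 0 in every FIT library, at least 3.79-fold higher, beside interferon-stimulated genes that moved both ways. ZBED2, a zinc finger factor, was the reverse, at 0 in every day 1 library and at 5.61, 3.43 and 1.92 FPKM in FIT, at least 43.6-fold lower.

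Among abundant genes, SQSTM1, the autophagy receptor p62 and a known NRF2 target, was at 263, 276 and 257 FPKM in DP-3 day 1 and at 63.3, 44.0 and 40.6 FPKM in FIT, 5.02-fold higher (edgeR adjusted p = 0.000939). UPP1, which splits uridine, was 5.58-fold higher, at 33.1, 32.2 and 34.6 FPKM against 4.91, 6.87 and 4.68 FPKM. The transcription factor KLF2 was 4.25-fold higher. BLVRB, a biliverdin reductase that acts after heme oxygenase, was 2.35-fold higher, at 28.3, 36.5 and 34.7 FPKM against 11.6, 15.7 and 11.7 FPKM.

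SMAD1, a carrier of the BMP signal, was 3.63-fold lower in DP-3 day 1, at 3.43, 3.79 and 3.50 FPKM against 14.6, 11.1 and 10.5 FPKM (edgeR adjusted p = 0.00106), while its relative SMAD9 was higher. TNC, the matrix protein tenascin C, was 4.39-fold lower, the calcium-binding S100A4 4.38-fold lower, PTX3, a soluble pattern recognition protein, 4.28-fold lower and the galectin LGALS1 2.65-fold lower. IFNB1 was not called with the day 1 libraries counted as 1 sample. The genes outside the lists were picked by their values, so a further fit of the same counts is not added support for any of them. UCA1, CD177 and IFNB1 passed the filter through the day 1 libraries alone, and ZBED2 through the FIT libraries alone.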
